A study of Ovis aries with 36 samples.

Results

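The nuclear genes that encode subunits of the oxidative phosphorylation (OXPHOS) complexes were examined in fetal sheep muscle and in 2 fetal adipose depots. Members were the loci named as an NDUFA, NDUFB, NDUFC, NDUFS or NDUFV gene (complex I), as SDHA, SDHB, SDHC or SDHD (complex II), or with a name that begins with UQCR (complex III), COX4 to COX8 (complex IV) or ATP5 (complex V, the ATP synthase). A locus also needed at least 10 counts over the 12 libraries of a tissue. The names of 60 genes matched at 62 loci in each tissue, and 58 of these loci passed in each tissue, out of 34958 assembled loci (muscle), 34246 loci (subcutaneous adipose tissue) and 35060 loci (perirenal adipose tissue). By name they were 57 genes in all 3 tissues, with 26 genes of complex I, 3 of complex II, 6 of complex III, 9 of complex IV and 13 of complex V. COX8C, NDUFB7 and NDUFS6 had at most 2 counts over the 12 libraries of any tissue, and a second UQCRH locus had 0.

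The samples were 36 RNA-seq libraries of RNA pooled from 26 fetuses of 15 Polypay ewes, all bred to 1 ram. From mid to late gestation the ewes received 1 of 3 diets, which were limit-fed corn (CN, whole shell corn), limit-fed dried distillers grains made from corn (DG) or haylage of alfalfa offered ad libitum (HY), and no diet is labelled as a control. Longissimus dorsi muscle (the long muscle of the back), subcutaneous adipose tissue and perirenal adipose tissue (the fat around the kidney) were each sampled as 4 pools per diet, 2 of female fetuses (F1, F2) and 2 of male fetuses (M1, M2). Some pools of a diet hold fetuses of the same dam, and CN pool F2 held RNA of 1 fetus, so the p-values measure the spread between these pools.

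In OXPHOS, complexes I and II pass electrons from NADH and succinate to ubiquinone, complex III passes them on to cytochrome c, and complex IV passes them to oxygen. Complexes I, III and IV pump protons across the inner mitochondrial membrane, and complex V uses the proton gradient to make ATP. Skeletal muscle spends this ATP on contraction, while brown adipose tissue, the main form of fat around the kidney of fetal lambs, can let protons bypass complex V through the uncoupling protein UCP1 and give off heat. Several subunits exist as isoforms encoded by separate genes, such as the COX6A, COX7A and COX4 subunits of complex IV and the c subunit of complex V (ATP5G1, ATP5G2 and ATP5G3).

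Total counts ranged from 6705766 to 29625146 per library. Levels are given as CPM (the counts of a gene scaled to a fixed library total) after TMM scaling over the 36 libraries, and they were compared between libraries for the same gene but not between genes, because CPM is not divided by transcript length. The marker genes fitted the tissue labels in part. Skeletal muscle markers (17 genes found of 20) summed to 141828 to 177274 CPM of all counts in muscle and to 34.7 to 847 CPM in perirenal adipose tissue, where none of the 17 was at 0 in every library. In subcutaneous adipose tissue the same markers ranged from 1086 to 125936 CPM, and 5 of the 12 libraries (CN F2, DG F1, DG F2, DG M2 and HY F2) were above 50000 CPM. Adipocyte markers summed to 1850 to 12348 CPM in subcutaneous, 7183 to 17648 CPM in perirenal and 243 to 373 CPM in muscle libraries. UCP1 itself was at a median of 680.3 CPM in perirenal and 66.3 CPM in subcutaneous libraries. Of the 6 brown adipocyte markers, UCP1 among them, 5 were lower and 1 higher in subcutaneous than in perirenal libraries (FDR ≤0.05, edgeR). The shares of all genes were 34.1% and 33.9%. The higher marker was ELOVL3, at a log2 fold change of 4.09 for subcutaneous over perirenal libraries.

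Loci had been assembled separately in each tissue, so the stretch over which reads were counted could differ between tissues. For 35 of the 57 genes the locus carried 1 name in every tissue and its bounds lay within 500 bases of each other across tissues. NDUFS7 shared its locus name with MUM1. For 26 genes the stretch also held other loci, NDUFA2, NDUFB9 and SDHC among them, and 5 genes (ATP5I, COX6A2, COX7A2, NDUFB1 and UQCRH) were counted over 175 to 539 bases, so reads of near-identical copies elsewhere in the genome may be part of their counts or missing from them. Their values are therefore uncertain. None of the 26 listed subunit genes of the mitochondrial genome had a named locus, and they were not analysed here. In bulk tissue, fewer cells of a type and less RNA per cell cannot be told apart.

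The first question was how the level of each complex differed between the tissues. Summed over its genes, complex I was highest in perirenal adipose tissue, at 4202 to 7476 CPM (median 6430) against 3694 to 6041 CPM (median 5097) in muscle and 3034 to 6813 CPM (median 4542) in subcutaneous adipose tissue. Complex IV had the same order of medians, with 2372 to 5048 CPM (median 3884) in perirenal, 2087 to 4023 CPM (median 3029) in muscle and 1517 to 4653 CPM (median 2083) in subcutaneous libraries. The ranges of all 3 tissues overlapped for both complexes.

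Complex II was lowest in subcutaneous adipose tissue, at 193 to 585 CPM (median 349.8), against 474 to 821 CPM (median 629) in muscle and 409.9 to 777 CPM (median 595) in perirenal adipose tissue. In 11 of the 12 pools it was higher in muscle than in subcutaneous fat of the same pool, with a median ratio of 1.94 (0.979 to 3.20). The highest subcutaneous values, 585, 513 and 497 CPM, were in DG F1, HY F2 and DG M2, which were rich in muscle markers. CN F2 and DG F2, also rich in these, were at 270 and 399 CPM. The part of muscle RNA in these sums was not tested. Complex III was at medians of 2724 CPM in perirenal, 1965 CPM in muscle and 1899 CPM in subcutaneous libraries. Complex V differed least between muscle and perirenal adipose tissue, with a median ratio of 1.06 (0.625 to 1.42) and the higher value in muscle in 7 of 12 pools. For complexes I, III and IV muscle was above perirenal adipose tissue in 1, 2 and 2 of the 12 pools.

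**Figure D1:**
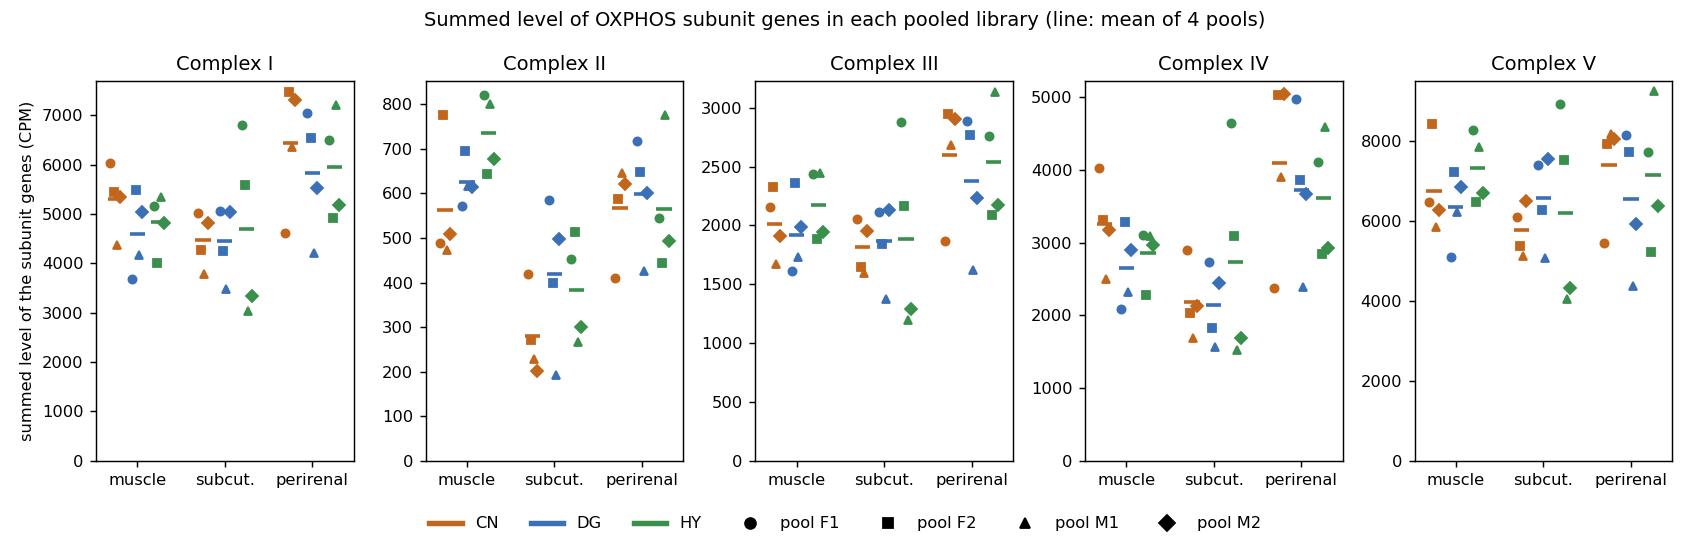
Summed CPM of the subunit genes of complexes I to V (vertical axes from 0, 1 panel per complex) in each pooled library, by tissue and maternal diet, with each pool as a point and the mean of 4 pools as a line. Perirenal libraries hold the highest complex I and IV means, subcutaneous libraries hold the lowest complex II means, and the pools of 1 diet spread as widely as the diets differ.

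Within a tissue the pools spread widely. The sum over all complexes ran from 13072 to 20290.5 CPM in muscle, 10073 to 23740.5 CPM in subcutaneous and 13000 to 24966 CPM in perirenal libraries, which is 1.55, 2.36 and 1.92 times from lowest to highest. In perirenal adipose tissue CN F1 and DG M1 were the lowest pools for complexes I to IV, with DG M1 and HY F2 lowest for complex V. In subcutaneous adipose tissue HY F1 was the highest pool for complexes I, III, IV and V and HY M1 the lowest for the same complexes, so the HY diet held both ends of the range. Skeletal muscle markers were at 1086 CPM in HY F1 and 4294 CPM in HY M1, among the lowest of the 12, and adipocyte markers at 9668 and 12348 CPM, among the highest, and their part in these sums was not tested. The coefficient of variation of single genes over the 12 libraries of a tissue was lowest in muscle (median 21.4%), higher in perirenal (25.0%) and highest in subcutaneous libraries (34.7%).

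The members were then compared between tissues one by one, in 1 edgeR fit of all libraries over 14591 genes, in which 56 members could be tested (COX6B2, a testis-type isoform, was at 0 to 4 counts per library and did not pass the filter). Between muscle and perirenal adipose tissue, 35 of 56 members differed at FDR ≤0.05, 15 higher and 20 lower in muscle, against 80.3% of all genes (40.1% higher and 40.2% lower). Between subcutaneous and perirenal adipose tissue 33 differed, 6 higher and 27 lower in subcutaneous tissue, against 68.1% of all genes (33.9% and 34.1%). Between muscle and subcutaneous adipose tissue 31 differed, 22 higher and 9 lower in muscle, against 72.9% of all genes (36.4% and 36.5%). The median log2 fold change of the members was -0.05, -0.30 and 0.23 in these comparisons, beside -0.01, -0.01 and 0.00 for all genes. The comparisons share libraries, so their counts are not independent of each other. Among the 34 tested members with like bounds in every tissue, 8 were higher and 13 lower in muscle than in perirenal adipose tissue, 5 higher and 20 lower in subcutaneous than in perirenal adipose tissue, and 14 higher and 6 lower in muscle than in subcutaneous adipose tissue.

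**Figure D2:**
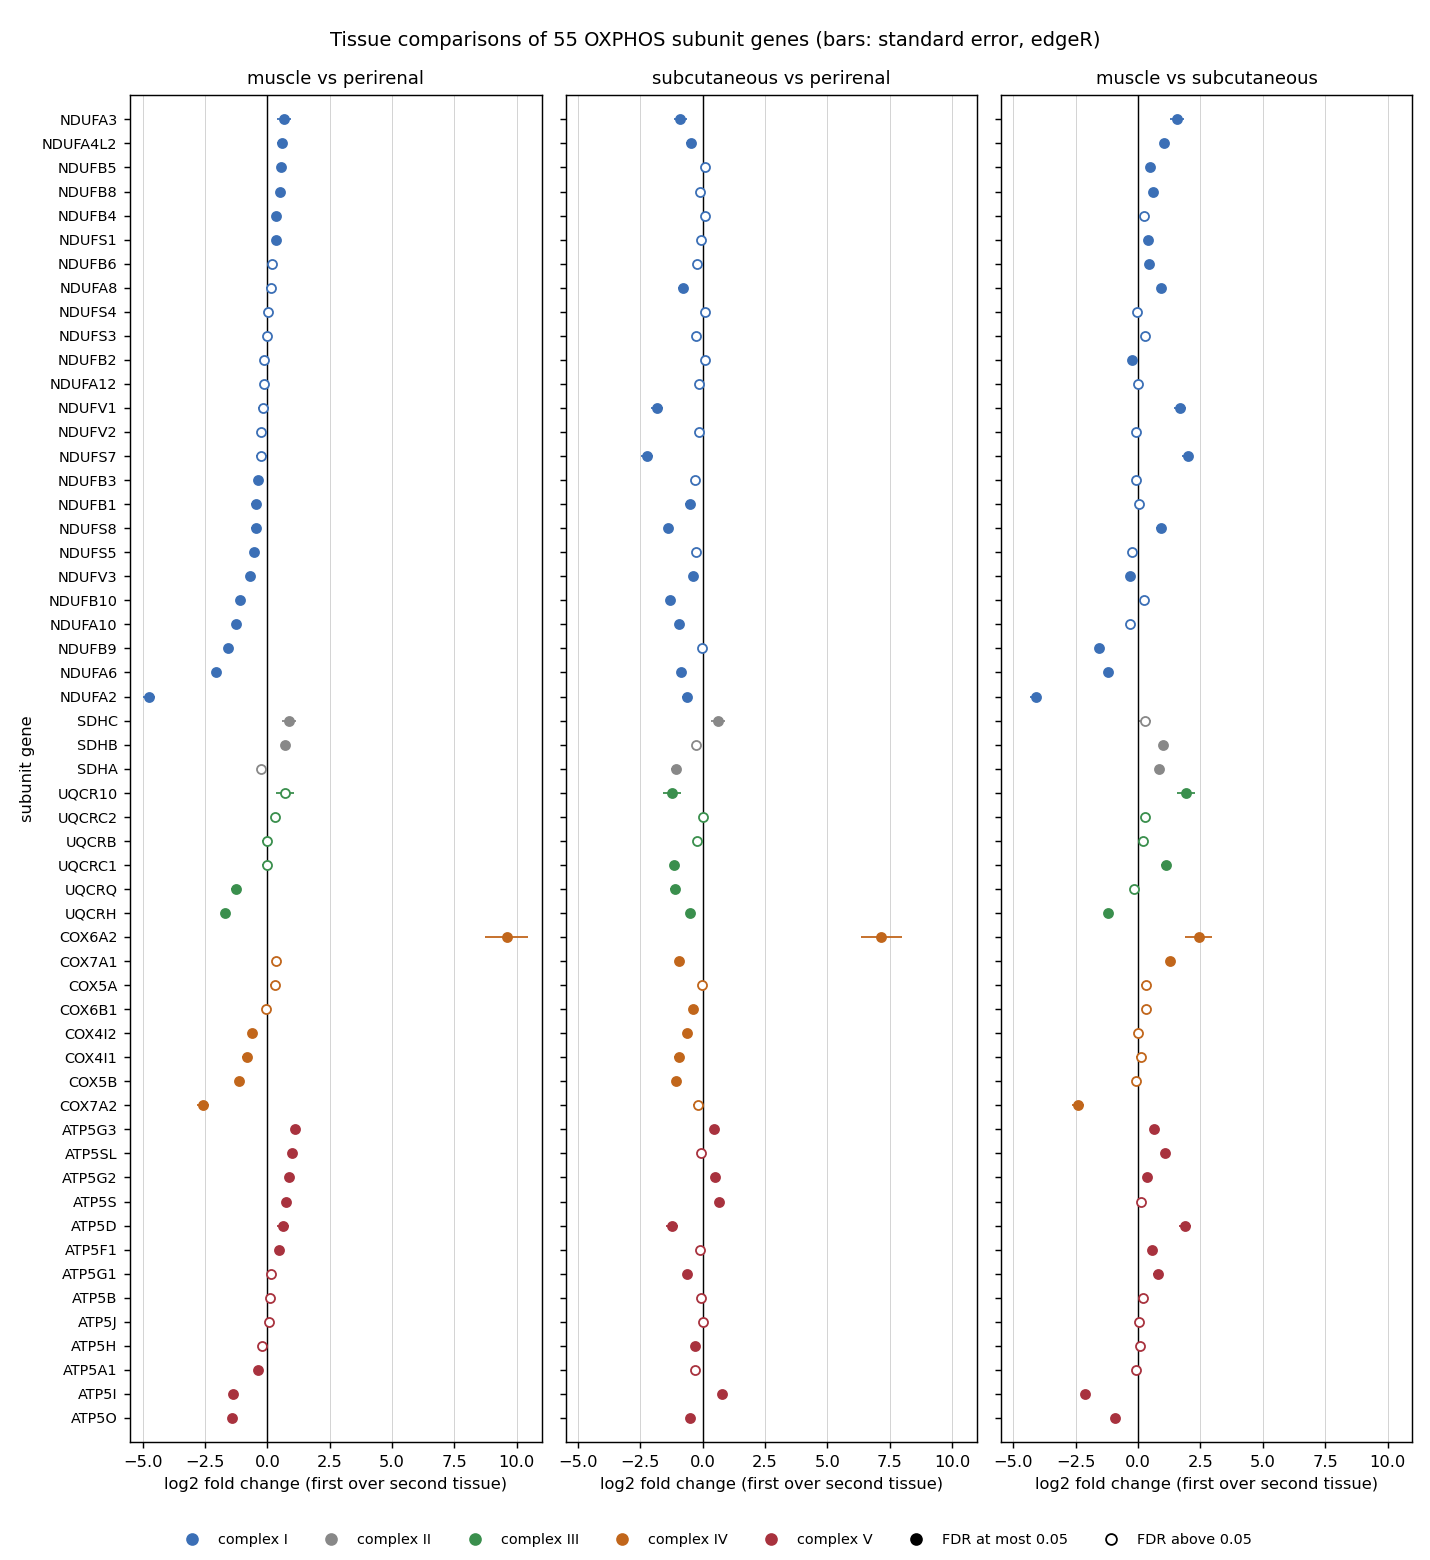
Log2 fold change (horizontal axes) of 55 of the 56 tested subunit genes (rows, grouped by complex) in the 3 tissue comparisons, first tissue over second. Bars are an approximate standard error, derived from the fold change and the F value of the test, and filled points mark FDR ≤0.05 in edgeR. Most called members lie left of 0 in subcutaneous vs. perirenal adipose tissue (26 of the 32 plotted) and right of 0 in muscle vs. subcutaneous adipose tissue (22 of 31). COX6A2 lies far to the right in both comparisons with perirenal adipose tissue.

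In complex I, 6 members were higher and 11 lower in muscle than in perirenal adipose tissue, and none of the 26 was higher and 13 were lower in subcutaneous than in perirenal adipose tissue. Against subcutaneous adipose tissue, 10 were higher and 5 lower in muscle. Of all genes, 40.1% were higher and 40.2% lower in the first of these comparisons, 33.9% and 34.1% in the next, and 36.4% and 36.5% in the last. The core subunits carry the electrons through the hydrophilic arm.

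NDUFV1, which binds FMN and takes the electrons from NADH, was at 24.8 to 125 CPM (median 60.2) in subcutaneous libraries, 100.4 to 296 CPM (median 218) in muscle and 109 to 469 CPM (median 233) in perirenal libraries. The subcutaneous range reached only into the lower end of the other ranges. The log2 fold change was -1.83 ± 0.24, FDR = 5.7e-08, over perirenal adipose tissue, and 1.67 ± 0.24, FDR = 2.4e-07, for muscle over subcutaneous adipose tissue (edgeR, here and below with the standard error). NDUFS7, which holds the last iron-sulfur cluster before ubiquinone, showed the same order at 25.1 to 182 CPM (median 59.0) in subcutaneous, 191 to 399.7 CPM (median 292) in muscle and 247 to 429.7 CPM (median 337) in perirenal libraries. Its subcutaneous pools lay below every other library. Here the locus also carried MUM1 in muscle and perirenal adipose tissue, over 29542 and 29539 bases against 7738 in subcutaneous adipose tissue, so more sequence was counted under this name there. NDUFS8, which holds a further pair of clusters and has like bounds in all tissues, was lower in subcutaneous than in perirenal adipose tissue too, with a log2 fold change of -1.38 ± 0.19, FDR = 1.8e-07. With all libraries NDUFV2, which carries a further cluster, and NDUFS3, a subunit of the same arm, differed in none of the 3 comparisons at FDR ≤0.05. The stretch of NDUFS3 held up to 19 loci and its start differed by up to 161641 bases between tissues. The end of NDUFV2 differed by up to 1195 bases, so the values of both genes are uncertain.

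The accessory subunits, which surround the core and are needed for its assembly and stability, were 19 of the tested members. In muscle 5 of these were higher and 9 lower than in perirenal adipose tissue, beside 40.1% and 40.2% of all genes. NDUFA6, of the LYR protein family that anchors the acyl carrier protein, was at 73.6 to 135 CPM (median 109) in muscle and 267 to 606 CPM (median 454) in perirenal libraries, ranges that did not overlap. The log2 fold change was -2.05 ± 0.17, FDR = 2.2e-12, and subcutaneous adipose tissue lay between, at 149 to 532 CPM (median 206). NDUFB9, a second LYR subunit, was at 83.1 to 150.1 CPM (median 118) in muscle against 217 to 586 CPM (median 344) in subcutaneous and 225 to 490.3 CPM (median 318) in perirenal libraries. Every muscle library lay below every adipose library, with a log2 fold change of -1.57 ± 0.15, FDR = 3.3e-11, over subcutaneous and -1.59 ± 0.15, FDR = 1.5e-11, over perirenal adipose tissue, while the depots differed by -0.02 ± 0.14, FDR = 0.90. NDUFB10, of the membrane arm, and NDUFA10, a subunit of the nucleoside kinase family, were chosen after their values were seen. Both were higher in perirenal adipose tissue than in muscle (muscle over perirenal -1.08 ± 0.16, FDR = 2.2e-07, and -1.28 ± 0.15, FDR = 5.2e-09) and higher than in subcutaneous adipose tissue (-1.30 ± 0.16, FDR = 1.5e-08, and -0.97 ± 0.15, FDR = 1.5e-06).

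NDUFA2 had the largest fold change of complex I, at 1.90 to 4.78 CPM (median 3.60) in muscle against 65.6 to 110.0 CPM (median 91.6) in perirenal libraries, but its locus took only 669 of the 46991 counts that fell on the loci of this stretch in muscle, so this value is uncertain. In the other direction NDUFA3 and NDUFA4L2 led. NDUFA3 was at 30.8 to 68.4 CPM (median 48.5) in muscle, 3.84 to 35.8 CPM (median 13.5) in subcutaneous and 18.4 to 44.2 CPM (median 29.2) in perirenal libraries, a log2 fold change of 0.66 ± 0.27, FDR = 0.027, over perirenal adipose tissue, with bounds that differ between tissues. NDUFA4L2, a paralogue of NDUFA4 that is induced by hypoxia and counted here by its name only, was at 15.7 to 44.7 CPM (median 24.7) in muscle, 4.59 to 23.0 CPM (median 12.2) in subcutaneous and 10.1 to 22.3 CPM (median 16.8) in perirenal libraries. Its log2 fold change was 1.06 ± 0.18, FDR = 4.8e-06, for muscle over subcutaneous and 0.58 ± 0.18, FDR = 0.0039, for muscle over perirenal adipose tissue.

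Complex II, the succinate dehydrogenase of the citrate cycle, was represented by SDHA, SDHB and SDHC. SDHA, the flavoprotein that oxidises succinate, was at 228 to 444 CPM (median 335) in muscle, 87.4 to 302 CPM (median 175) in subcutaneous and 269 to 563 CPM (median 393) in perirenal libraries. Muscle exceeded subcutaneous adipose tissue in all 12 pools (log2 fold change 0.85 ± 0.17, FDR = 6.4e-05), and perirenal exceeded subcutaneous adipose tissue in all 12 pools (-1.09 ± 0.17, FDR = 2.1e-06, subcutaneous over perirenal). SDHB, the iron-sulfur subunit next to it, was higher in muscle than in both depots, at 209 to 290.2 CPM (median 235) against 69.9 to 214 CPM (median 116) and 84.5 to 212 CPM (median 142), with log2 fold changes of 1.01 ± 0.16, FDR = 1.1e-06, and 0.73 ± 0.16, FDR = 9.2e-05. SDHC, a membrane anchor, was higher in muscle than in perirenal adipose tissue, at 24.2 to 86.3 CPM (median 58.1) against 10.5 to 76.4 CPM (median 22.2) (log2 fold change 0.87 ± 0.27, FDR = 0.0043), over stretches that hold other loci and span 30509 bases in muscle and 60111 in perirenal adipose tissue. Muscle over perirenal adipose tissue, SDHA was at -0.24 ± 0.17, FDR = 0.20, and was not called. SDHA has like bounds in all tissues, while those of SDHB differ by up to 6566 bases at the start and 1918 at the end. The values of the 3 subunits were thus unlike, and the part of the counted stretch in this was not tested.

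In complex III, none of 6 members was higher and 2 were lower in muscle than in perirenal adipose tissue, beside 40.1% and 40.2% of all genes. In subcutaneous adipose tissue 4 were lower and none higher than in perirenal adipose tissue, beside 34.1% and 33.9% of all genes. UQCRH, the hinge protein that binds cytochrome c1, was at 147 to 247 CPM (median 180.0) in muscle, 315 to 982 CPM (median 368) in subcutaneous and 394 to 814 CPM (median 606) in perirenal libraries. Muscle lay below both depots in every library, with log2 fold changes of -1.71 ± 0.16, FDR = 1.8e-11, over perirenal and -1.21 ± 0.16, FDR = 3.5e-08, over subcutaneous adipose tissue, but the counted locus is one of the short ones. UQCRQ, a small subunit bound to cytochrome b, was also lower in muscle than in perirenal adipose tissue. It was at 79.7 to 204 CPM (median 138) against 199 to 454 CPM (median 355) (log2 fold change -1.26 ± 0.19, FDR = 7.0e-07, edgeR). The start of its locus differs by up to 4902 bases between tissues, so this value is uncertain.

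UQCRC1 and UQCRC2 are the large core proteins of complex III that face the matrix. UQCRC1 was at 132 to 351 CPM (median 250.4) in muscle, 55.9 to 183 CPM (median 113) in subcutaneous and 129.9 to 405 CPM (median 233) in perirenal libraries. The difference was 1.11 ± 0.17, FDR = 1.3e-06, for muscle over subcutaneous and -1.14 ± 0.18, FDR = 9.9e-07, for subcutaneous over perirenal adipose tissue. With all libraries UQCRC2 was called in none of the 3 comparisons. UQCR10, a small accessory subunit, was lowest in subcutaneous libraries, at 6.07 to 95.0 CPM (median 23.7) against 84.1 to 174 CPM (median 155) in muscle and 37.9 to 147 CPM (median 82.5) in perirenal libraries. Its log2 fold change was 1.93 ± 0.37, FDR = 3.3e-05, for muscle over subcutaneous adipose tissue, with muscle higher in 12 of 12 pools.

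Complex IV, cytochrome c oxidase, held the gene with the largest tissue difference. COX6A2, the isoform of subunit VIa found in heart and skeletal muscle, was at 97.1 to 452 CPM (median 171) in muscle, 0.727 to 118 CPM (median 16.6) in subcutaneous and 0.0788 to 0.671 CPM (median 0.228) in perirenal libraries (1 to 8 counts per perirenal library). Muscle and perirenal libraries did not overlap, and the log2 fold change was 9.59 ± 0.86, FDR = 2.5e-11, for muscle over perirenal and 7.16 ± 0.84, FDR = 1.3e-08, for subcutaneous over perirenal adipose tissue, both resting on 36 perirenal counts in all. The locus lies at chr24:27474853-27475391 (Oar_v3.1). Its partner isoform COX6A1 was not analysed here. COX7A1, the isoform of subunit VIIa typical of heart, skeletal muscle and brown fat, was at 299.6 to 843 CPM (median 467) in muscle, 109.9 to 294 CPM (median 182) in subcutaneous and 225 to 562 CPM (median 368) in perirenal libraries. Every muscle library was above every subcutaneous library (log2 fold change 1.29 ± 0.18, FDR = 1.1e-07), and subcutaneous adipose tissue was below perirenal adipose tissue in all 12 pools (-0.94 ± 0.17, FDR = 2.1e-05).

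COX7A2, the isoform of the same subunit found in most tissues, was lowest in muscle, where COX7A1 had its highest median. COX7A2 was at 14.1 to 27.7 CPM (median 20.6) in muscle, 46.6 to 269 CPM (median 89.1) in subcutaneous and 60.6 to 169 CPM (median 136) in perirenal libraries. Muscle was below every adipose library, with log2 fold changes of -2.58 ± 0.23, FDR = 1.1e-11, over perirenal and -2.41 ± 0.23, FDR = 7.4e-11, over subcutaneous adipose tissue, from a short locus, 250 bases in muscle and subcutaneous and 387 in perirenal adipose tissue. COX7A1 thus took 93.5% to 97.6% of the counts of this isoform pair in muscle, 70.9% to 78.8% in perirenal and 47.8% to 83.7% in subcutaneous libraries. These are shares of counts not divided by length, so they compare tissues and not isoforms. The stretch of COX7A1 also held another locus, and COX7A1 took 93761 of the 103985 counts on both in muscle, 51131 of 83971 in perirenal and 27728 of 72643 in subcutaneous adipose tissue, so its fold changes and shares are uncertain.

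COX4I1 and COX5B, subunits close to the catalytic core in all tissues, were highest in perirenal adipose tissue. COX4I1 was at 659.6 to 1824 CPM (median 1273) in perirenal, 564 to 873 CPM (median 727) in muscle and 374 to 1699 CPM (median 498) in subcutaneous libraries, and COX5B at 705 to 1368 CPM (median 1099), 328 to 567 CPM (median 497) and 334 to 1121 CPM (median 432). The muscle and perirenal ranges of COX5B did not overlap (log2 fold change -1.14 ± 0.15, FDR = 5.5e-08), and COX4I1 was lower in subcutaneous than in perirenal adipose tissue by the same test (-0.95 ± 0.20, FDR = 1.4e-04). COX4I2, the isoform of subunit IV known from lung and induced by low oxygen, was also higher in perirenal adipose tissue, at 19.6 to 52.9 CPM (median 34.7) against 14.6 to 36.4 CPM (median 20.1) in muscle (muscle over perirenal -0.62 ± 0.14, FDR = 1.6e-04). The locus of COX4I2 spans 9183 bases in perirenal adipose tissue and 7040 in muscle, so its fold change is uncertain. COX6B1, which joins the monomers of the complex, was called only in subcutaneous vs. perirenal adipose tissue (-0.40 ± 0.15, FDR = 0.024).

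**Figure D3:**
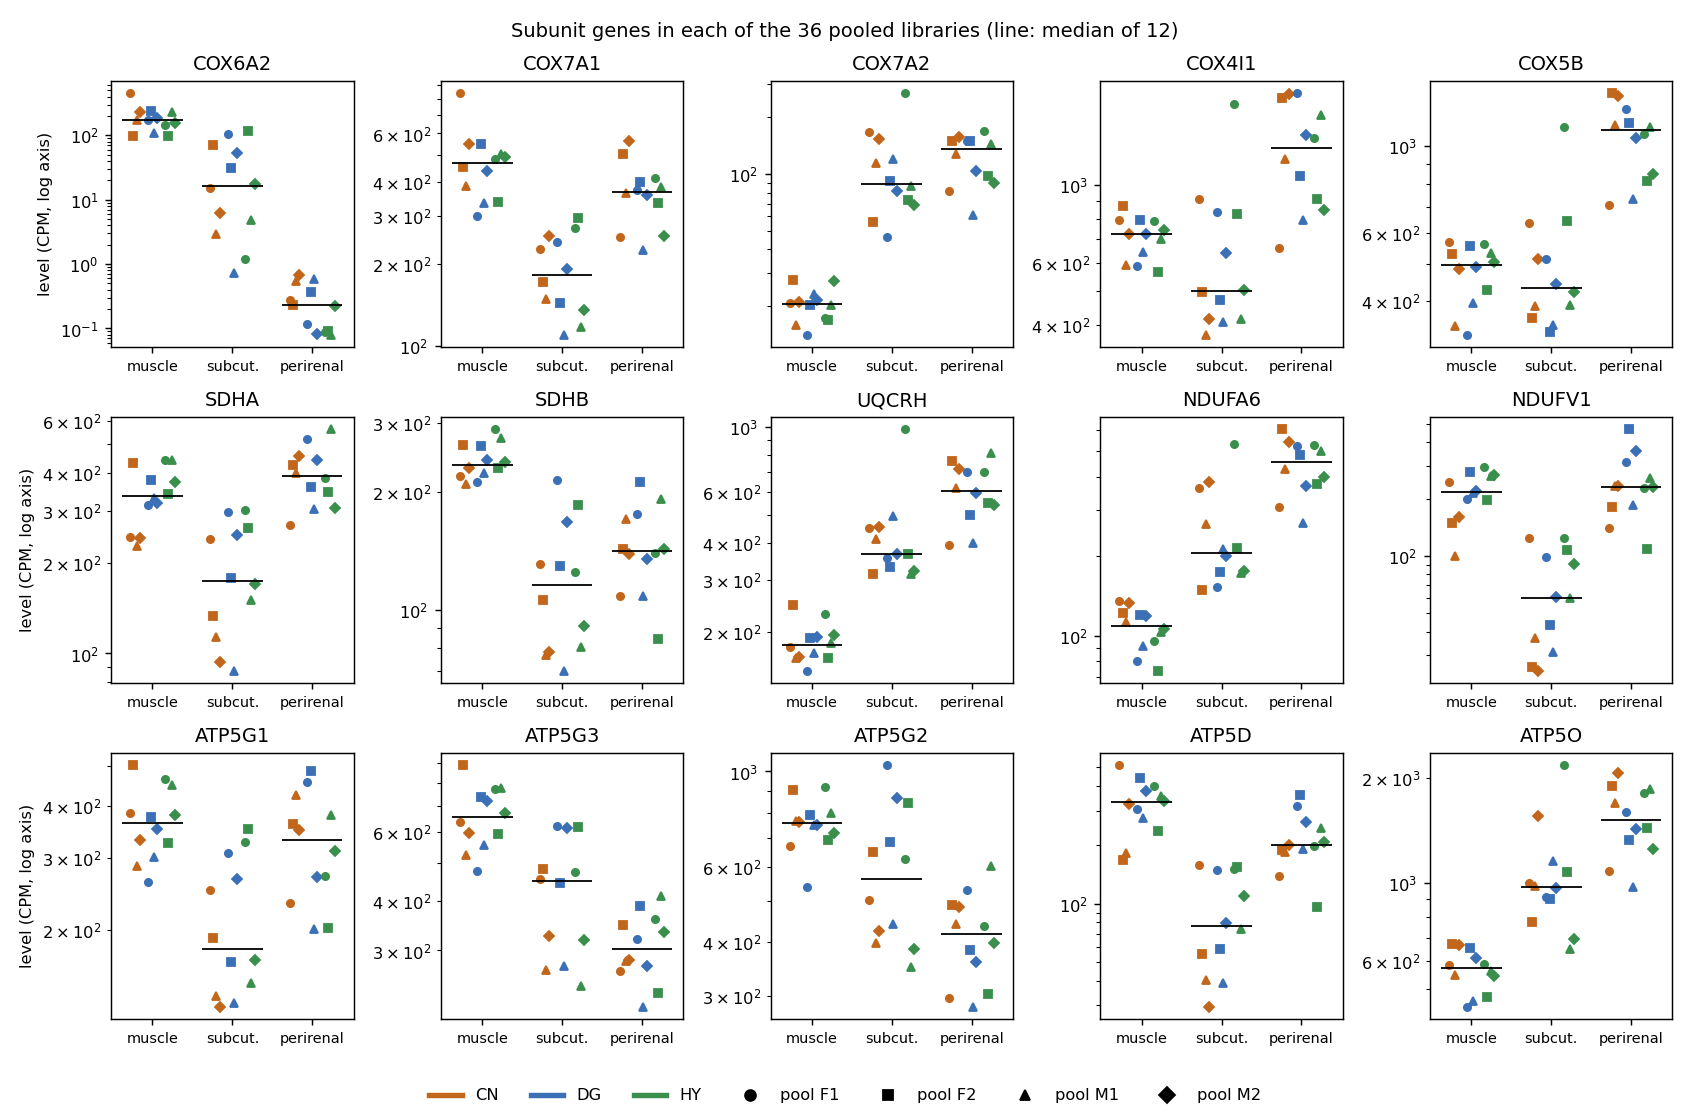
CPM on logarithmic vertical axes of 15 subunit genes in the 36 libraries, by tissue, coloured by maternal diet and with the pool as the symbol; lines are medians of 12 libraries. COX6A2 falls from muscle to subcutaneous to perirenal libraries, COX7A2, UQCRH, NDUFA6 and ATP5O are lowest in muscle, and NDUFV1, ATP5D, SDHA and COX7A1 are lowest in subcutaneous libraries.

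In complex V, 6 of 13 members were higher and 3 lower in muscle than in perirenal adipose tissue, beside 40.1% and 40.2% of all genes. In subcutaneous adipose tissue 4 were higher and 4 lower than in perirenal adipose tissue, beside 33.9% and 34.1%. Compared with subcutaneous adipose tissue, 6 were higher and 2 lower in muscle, beside 36.4% and 36.5%. ATP5G1, ATP5G2 and ATP5G3 encode the same mature c subunit, the ring that protons turn, and differ in their import sequences. ATP5G3 was highest in muscle, at 478 to 892 CPM (median 654) against 244 to 624 CPM (median 451) in subcutaneous and 216 to 414 CPM (median 302) in perirenal libraries. Muscle and perirenal ranges did not overlap (log2 fold change 1.10 ± 0.15, FDR = 9.6e-08). ATP5G2 had the same order of medians, at 537 to 919.8 CPM (median 758), 349.9 to 1037 CPM (median 563) and 283 to 601 CPM (median 418), with 0.86 ± 0.15, FDR = 5.1e-06, for muscle over perirenal adipose tissue.

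ATP5G1 differed from both of these, at 262 to 505 CPM (median 364) in muscle, 130.1 to 352 CPM (median 179.8) in subcutaneous and 202 to 488 CPM (median 330.3) in perirenal libraries. It did not pass the test between muscle and perirenal adipose tissue (0.16 ± 0.17, FDR = 0.39) and was lower in subcutaneous than in perirenal adipose tissue (-0.62 ± 0.17, FDR = 0.0022), where ATP5G2 and ATP5G3 were higher (0.50 ± 0.15, FDR = 0.0037, and 0.46 ± 0.15, FDR = 0.0076). ATP5G1 accordingly took 25.4% to 38.6% of the counts of the 3 genes in perirenal libraries against 18.1% to 22.7% in muscle and 12.9% to 22.9% in subcutaneous libraries. The perirenal shares lay above all others.

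Among the other subunits of the ATP synthase, ATP5D, the delta subunit of the central stalk, was lowest in subcutaneous adipose tissue, at 29.5 to 157 CPM (median 76.5) against 168 to 516 CPM (median 330.4) in muscle and 96.2 to 361 CPM (median 199) in perirenal libraries. Every muscle library was above every subcutaneous one (log2 fold change 1.87 ± 0.25, FDR = 6.8e-08). ATP5O, the oligomycin-sensitivity subunit at the top of the peripheral stalk, was lowest in muscle, at 444 to 673 CPM (median 573) against 977 to 2067 CPM (median 1517) in perirenal libraries, with no overlap (log2 fold change -1.43 ± 0.16, FDR = 7.8e-10). ATP5I, the membrane subunit e, was the only called member of any complex with its highest level in subcutaneous adipose tissue against both other tissues, at 17.3 to 65.3 CPM (median 22.4) against 9.78 to 19.0 CPM (median 16.0) in perirenal and 3.99 to 10.8 CPM (median 5.94) in muscle libraries, from a short locus. Its log2 fold change was 0.77 ± 0.16, FDR = 8.2e-05, for subcutaneous over perirenal adipose tissue and -2.13 ± 0.16, FDR = 3.9e-13, for muscle over subcutaneous adipose tissue.

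ATP5SL and ATP5S match by name, although the ATP5SL product is known as an assembly factor for the membrane arm of complex I. ATP5SL was at 43.0 to 58.2 CPM (median 50.0) in muscle, above every subcutaneous (13.8 to 36.0 CPM (median 23.9)) and perirenal library (20.6 to 33.6 CPM (median 24.2)), with a log2 fold change of 1.07 ± 0.11, FDR = 2.7e-10, over subcutaneous adipose tissue. ATP5S was higher in subcutaneous than in perirenal adipose tissue (0.64 ± 0.15, FDR = 4.1e-04).

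The level of COX6A2 in subcutaneous libraries moved with that of the skeletal muscle markers, which do not include it. It was at 0.727 CPM in DG M1 and 1.21 CPM in HY F1, the libraries with the fewest muscle markers, and at 118 CPM in HY F2 and 106 CPM in DG F1, those with the most. Over the 12 libraries, on log2 scales, Pearson's r was 0.98 and Spearman's rho 0.97, each with a two-sided permutation p of 2e-05, the smallest that 100000 permutations can give. This was the only relation of this kind computed. Without the 2 libraries farthest from the median of the markers r was 0.97.

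**Figure D4:**
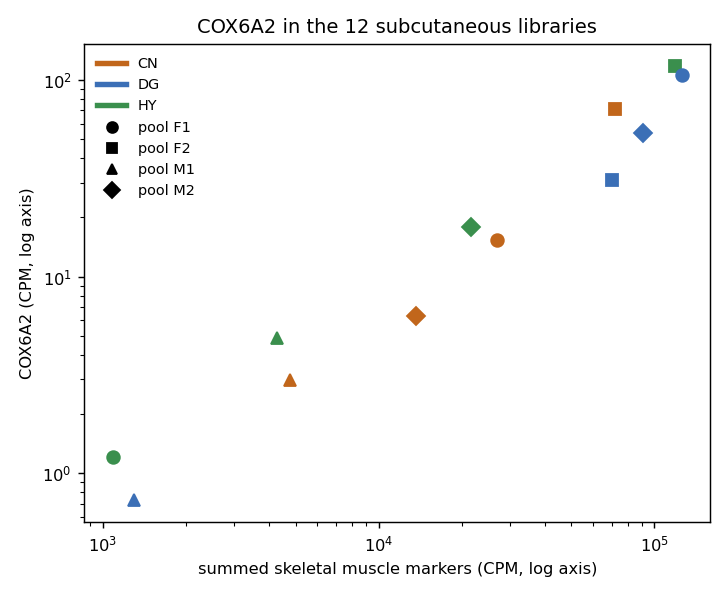
COX6A2 (vertical, CPM) against the summed skeletal muscle markers (horizontal, CPM of all counts) in the 12 subcutaneous libraries, both on logarithmic axes, coloured by maternal diet and with the pool as the symbol. The points rise together from 0.727 CPM of COX6A2 at 1295 CPM of markers to 118 CPM at 118590 CPM.

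The tissue comparisons with subcutaneous adipose tissue were therefore repeated without the 5 libraries above 50000 CPM of muscle markers, a step chosen after the data were seen. This left DG M1 as the only subcutaneous DG pool. Of the members, 30 were then higher and 7 lower in muscle than in subcutaneous adipose tissue, beside 37.1% and 34.8% of all genes, and 2 were higher and 29 lower in subcutaneous than in perirenal adipose tissue, beside 26.3% and 29.8% of all genes. The 2 that remained higher in subcutaneous adipose tissue were ATP5I, at a log2 fold change of 0.81 (FDR = 0.0011), and COX6A2, at 3.94 (FDR = 0.0018). The 7 libraries kept still held 1086 to 26780.4 CPM of skeletal muscle markers, against 34.7 to 847 CPM in perirenal libraries. ATP5G2, ATP5G3, ATP5S and SDHC were no longer called there, at log2 fold changes of 0.09, 0.04, 0.15 and 0.20 (FDR = 0.66, 0.86, 0.39 and 0.65). On the lower side the calls of ATP5H, ATP5O, UQCRH and NDUFA4L2 were lost, at -0.40, -0.40, -0.32 and -0.45 (FDR = 0.057, 0.10, 0.18 and 0.13). SDHB, at -0.28 with all libraries, became -0.76 (FDR = 3.2e-04), and UQCRB went from -0.24 to -0.62 (FDR = 0.011). COX6A2 in muscle over subcutaneous adipose tissue went from 2.43 to 5.62 (FDR = 7.0e-09). The edgeR calls for NDUFV1, NDUFS7, SDHA, UQCRC1, UQCR10, COX7A1 and ATP5D between subcutaneous adipose tissue and either other tissue were kept. NDUFS3 and UQCRC2, not called with all libraries, moved away from 0 in these comparisons. NDUFS3 went from -0.26 to -0.51 in subcutaneous over perirenal and from 0.26 to 0.47 in muscle over subcutaneous adipose tissue. UQCRC2 went from 0.01 to -0.31 and from 0.29 to 0.57.

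The second question was whether the members differed between maternal diets within a tissue. In muscle, complex II summed to 490, 775, 474 and 509 CPM in the CN pools F1, F2, M1 and M2, to 572, 696, 616 and 614 CPM in the DG pools and to 821, 643, 800.1 and 677 CPM in the HY pools. The other CN pools lay below all DG and HY pools, and CN F2 lay among those of HY. For complex I the diet means were 5306 ± 690 CPM (SD, n = 4) with CN, 4597 ± 818 CPM with DG and 4837.5 ± 590 CPM with HY, differences within the spread between pools. Complex V was at 6759 ± 1145, 6353 ± 930.0 and 7338 ± 877 CPM.

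For CN vs. HY in muscle, 1 of 56 members differed at FDR ≤0.05, beside 2.69% of all loci, and 12 had FDR ≤0.20, 8 higher and 4 lower in HY, beside 16.0% of all loci (10.3% higher and 5.7% lower). An unadjusted p under 0.05 was found for 16 members, or 28.6%, beside 20.4% of all loci. NDUFA10, whose muscle locus spans chr1:1485013-1523521 (Oar_v3.1), was at 44.1, 86.7, 43.4 and 45.4 CPM in the CN pools F1, F2, M1 and M2. In the HY pools it was at 105, 98.9, 108 and 79.0 CPM. CN F1, M1 and M2 lay below every HY pool, while CN F2 was above 1 of these, HY M2. The mean rose from 54.9 ± 21.2 CPM to 97.9 ± 13.2 CPM (SD, n = 4), a log2 fold change of 0.85 ± 0.20, FDR = 0.042, in edgeR. Its DG pools were at 81.1, 80.7, 71.9 and 64.9 CPM. The call was lost without CN F1, CN M1, CN M2, HY F1, HY F2 or HY M1, with FDR = 0.11, 0.11, 0.14, 0.13, 0.13 and 0.075, and in the fit of the 8 pools of both diets alone (FDR = 0.069). Without CN F2 it was at 1.16 (FDR = 0.0017).

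The other 7 members with a higher level in HY at FDR ≤0.20 were UQCRC1, SDHC, NDUFV1, NDUFV3, ATP5A1, UQCRC2 and SDHA. UQCRC1 was at 254, 201, 132 and 173 CPM with CN and 351, 247, 339.9 and 278 CPM with HY, where only CN F1 reached into the HY range (log2 fold change 0.70 ± 0.18, FDR = 0.057). SDHA was at 245, 433, 228 and 244 CPM with CN and 444, 341, 443 and 376 CPM with HY (0.50 ± 0.19, FDR = 0.15). ATP5A1, the alpha subunit of the catalytic head of ATP synthase, was at 541, 1130.3, 631 and 490.2 CPM with CN and 1231, 1009.8, 1184 and 868 CPM with HY (0.64 ± 0.23, FDR = 0.13). In both genes CN F2 stood among the HY pools and the other CN pools below all of these. The rest had log2 fold changes of 0.84 (FDR = 0.10), for SDHC, 0.66 (FDR = 0.11), for NDUFV1, 0.44 (FDR = 0.12), for NDUFV3 and 0.50 (FDR = 0.14), for UQCRC2.

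The 4 members with a lower level in HY were NDUFS5, ATP5H, NDUFA6 and NDUFB3. NDUFS5, an accessory subunit that faces the intermembrane space, was at 538, 390.1, 383 and 502 CPM with CN, 208, 375, 243 and 350.4 CPM with DG and 267, 219, 305 and 326 CPM with HY. All CN pools were above all DG and all HY pools, and the log2 fold change was -0.68 ± 0.20, FDR = 0.081, for HY over CN and -0.62 ± 0.20, FDR = 0.16, for DG over CN. ATP5H, the d subunit of the peripheral stalk, was at 1071, 909.8, 766 and 938 CPM with CN and 686, 531, 680.2 and 710.3 CPM with HY, with no overlap (-0.48 ± 0.17, FDR = 0.14). NDUFA6 did not overlap either (-0.39 ± 0.15, FDR = 0.16), and NDUFB3, an accessory subunit of the membrane arm, did (-0.50 ± 0.19, FDR = 0.16). By DESeq2, 5 members passed FDR ≤0.05 in this comparison, namely NDUFA10, UQCRC1, NDUFS5, SDHC and NDUFV1, beside 8.45% of all loci by that tool. Without CN F2, 7 passed in edgeR, beside 6.66% of all loci, namely NDUFA10, SDHC, ATP5A1, SDHA, ATP5B, UQCRC2 and NDUFV3, all higher in HY. Without CN F1, 2 passed, NDUFV1 and UQCRC1, also higher in HY, beside 0.906% of all loci.

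**Figure D5:**
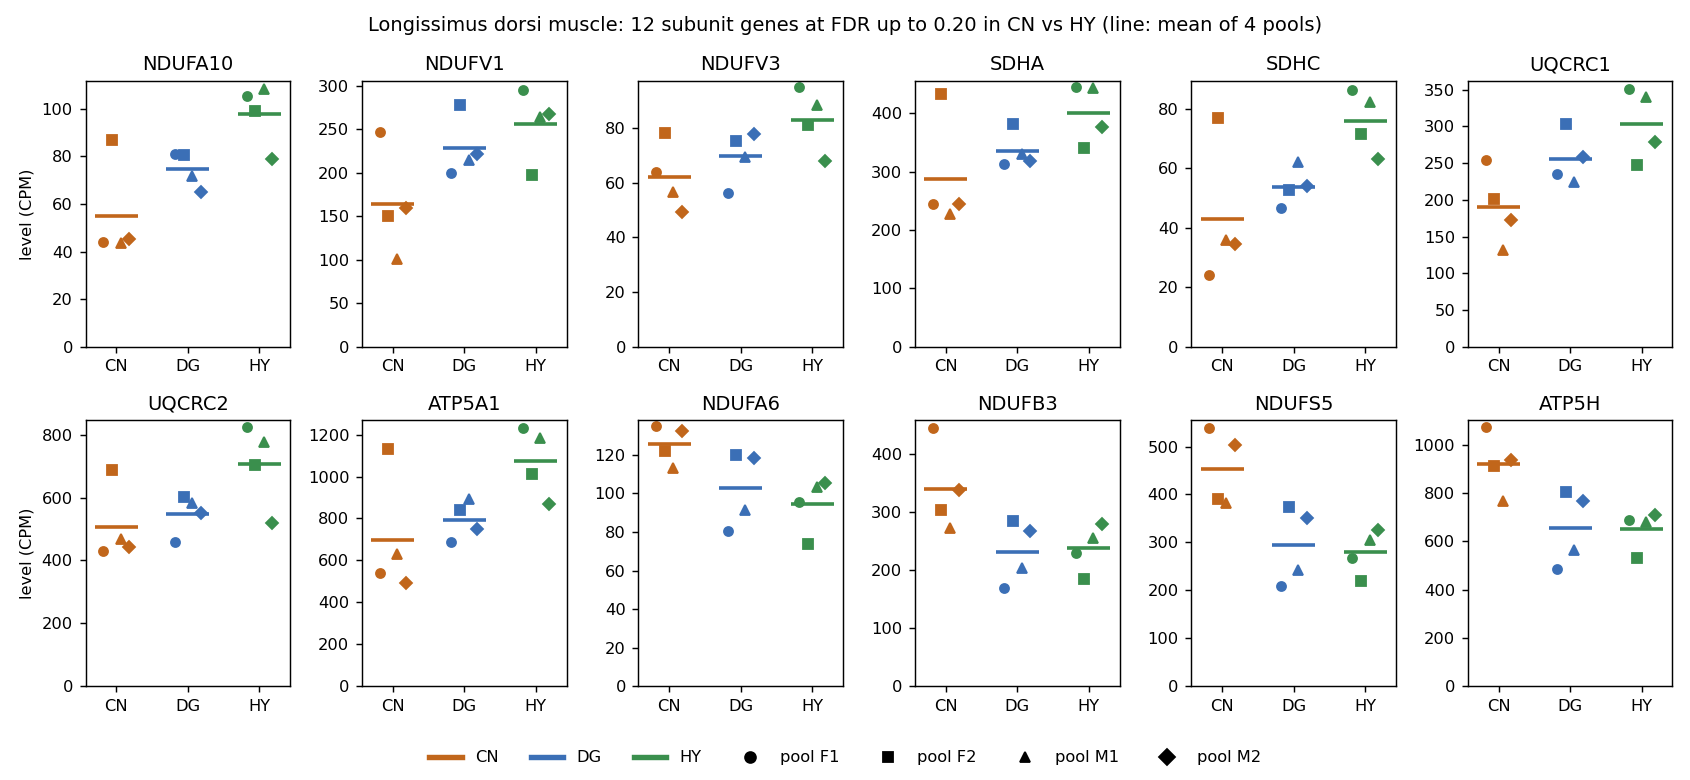
CPM (vertical axes from 0) of the 12 subunit genes with FDR ≤0.20 for CN vs. HY in muscle, by maternal diet, with each pool as a point and the mean of 4 pools as a line. In NDUFA10, SDHA, SDHC, UQCRC2 and ATP5A1 the CN pool F2 stands with the HY pools, away from the other CN pools.

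For CN vs. DG in muscle, none of the 56 members passed FDR ≤0.05 in edgeR or DESeq2, beside 1.01% of all loci in edgeR, and 11 had an unadjusted p under 0.05, or 19.6%, beside 16.3% of all loci. The 3 with FDR ≤0.20, beside 7.06% of all loci, were all lower with DG, as were 1.62% of all loci. They were NDUFS5, COX6B1, at 901, 723, 587 and 728 CPM with CN and 362, 622, 452 and 582 CPM with DG (-0.53 ± 0.19, FDR = 0.19), and NDUFB3 (-0.54 ± 0.19, FDR = 0.19). Without CN F2, 2 members passed FDR ≤0.05, beside 1.77% of all loci, NDUFA10 at 0.76 (FDR = 0.016) and SDHC at 0.78 (FDR = 0.035), both higher with DG. For DG vs. HY in muscle none passed FDR ≤0.05 in edgeR or DESeq2, and none had an unadjusted p under 0.05, beside 0.0% and 2.14% of all loci in edgeR. The smallest p was that of NDUFS1, the largest core subunit of complex I, at 179, 262, 198 and 219 CPM with DG and 303, 264, 323 and 202 CPM with HY (0.36 ± 0.17, FDR = 0.9997), followed by UQCRC2 (0.37 ± 0.18, FDR = 0.9997) and NDUFA10 (0.40 ± 0.20, FDR = 0.9997).

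The members' log2 fold changes had a median of -0.15 for DG over CN, -0.06 for HY over CN and 0.10 for HY over DG, beside -0.00, -0.02 and -0.01 for all loci. The first pair of comparisons shares the CN pools. Fold changes lay between -0.62 and 0.52, between -0.68 and 0.85 and between -0.16 and 0.50.

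In subcutaneous adipose tissue no member passed FDR ≤0.05 in edgeR in any diet comparison, beside 0.0% of all loci each time, and 1, 1 and 5 members had an unadjusted p under 0.05 for DG over CN, HY over CN and HY over DG, beside 15.0%, 4.34% and 18.1% of all loci. By DESeq2 0, 0 and 1 passed. ATP5I led in DG vs. HY, at 21.4, 17.3, 18.7 and 19.3 CPM with DG and 65.3, 31.9, 26.4 and 30.8 CPM with HY. The HY pools were all above the DG pools, with the largest value in HY F1, and the log2 fold change was 0.99 ± 0.27, FDR = 0.12, for HY over DG. It was the member called by DESeq2 (FDR = 0.023), beside 7.27% of all loci by that tool, and without HY F1 it was at 0.65. NDUFS8 followed, at 36.5, 20.0, 18.8 and 26.1 CPM with DG and 89.8, 46.5, 26.8 and 37.0 CPM with HY (0.96 ± 0.34, FDR = 0.18), and these were the 2 members with FDR ≤0.20, beside 10.8% of all loci. With the replicate number of the labels as a block, both passed FDR ≤0.05 (FDR = 0.047 for ATP5I and 0.046 for NDUFS8), beside 1.48% of all loci.

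SDHC had the smallest p in CN vs. DG and the next in DG vs. HY, at 45.7, 30.7, 38.5 and 29.5 CPM with CN, 73.1, 90.3, 35.4 and 80.7 CPM with DG and 24.7, 64.0, 35.4 and 38.1 CPM with HY. The highest values were in DG F1, DG F2 and DG M2, all among the libraries rich in muscle markers, and HY F2, which is another, had the highest HY value. CN F2, the remaining library rich in these markers, was below CN F1 and CN M1, which are not. The log2 fold change was 0.92 ± 0.32, FDR = 0.27, for DG over CN and -0.78 ± 0.32, FDR = 0.23, for HY over DG, and without the 5 libraries rich in these markers they were -0.12 and -0.10. ATP5G2 in CN vs. DG (0.59 ± 0.31, FDR = 0.38) was at -0.01 without these libraries. DG M1 was then the only DG pool left, so these values set the other diets against this library alone. The third smallest p was that of NDUFA6 (-0.68 ± 0.37, FDR = 0.38). For CN vs. HY the smallest p values were those of ATP5I (0.69 ± 0.26, FDR = 0.94), NDUFV3 (0.40 ± 0.21, FDR = 0.94) and NDUFS8 (0.60 ± 0.34, FDR = 0.94).

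In perirenal adipose tissue no member passed FDR ≤0.05 in edgeR or DESeq2, beside 0.115%, 0.0% and 0.0% of all loci in edgeR for DG over CN, HY over CN and HY over DG. An unadjusted p under 0.05 was found for 4, 1 and 4 members, beside 9.9%, 2.31% and 9.86% of all loci. COX4I2, ATP5D and NDUFV1 had the smallest p both in CN vs. DG and in DG vs. HY, which share the DG pools. COX4I2 was at 19.6, 32.9, 23.3 and 36.8 CPM with CN, 36.5, 39.1, 40.2 and 52.9 CPM with DG and 31.0, 30.5, 21.3 and 37.0 CPM with HY. The DG mean was the highest and the ranges overlapped, at 0.59 ± 0.21, FDR = 0.33, for DG over CN and -0.50 ± 0.21, FDR = 0.46, for HY over DG. ATP5D was at 138, 188, 185 and 200.4 CPM with CN, 316, 361, 191 and 263 CPM with DG and 199, 96.2, 244 and 206 CPM with HY (0.67 ± 0.25, FDR = 0.37, for DG over CN). NDUFV1 was at 141, 181, 234 and 234 CPM, 316, 469, 186 and 359.8 CPM and 228, 109, 259 and 231 CPM (0.75 ± 0.29, FDR = 0.39, for DG over CN). In both genes DG F2 held the highest value. For CN vs. HY the smallest p values were those of NDUFS8 (-0.36 ± 0.16, FDR = 0.9999), NDUFB1 (-0.39 ± 0.27, FDR = 0.9999) and NDUFA8 (-0.26 ± 0.20, FDR = 0.9999).

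Whether a diet difference was unlike in 2 tissues was tested as a difference of log2 fold changes in the fit of all libraries. For CN vs. HY in muscle against perirenal adipose tissue no member passed FDR ≤0.05 in edgeR or DESeq2, beside 0.0% of all genes, and 2 had an unadjusted p under 0.05, beside 6.79% of all genes, SDHC at 1.44 ± 0.66, FDR = 0.70, and NDUFA10 at 0.77 ± 0.37, FDR = 0.72. For CN vs. DG in muscle against subcutaneous adipose tissue none passed in either tool, beside 0.0206%, and ATP5G2 had the only unadjusted p under 0.05 (-0.75 ± 0.37, FDR = 0.53), beside 9.44% of all genes. For DG vs. HY in subcutaneous against perirenal adipose tissue none passed in either tool, beside 7.88% of all genes, and 7 members had an unadjusted p under 0.05, beside 25.3% of all genes. These 7 also had FDR ≤0.20, beside 25.4% of all genes. They were NDUFS8 (1.25 ± 0.46, FDR = 0.085), NDUFS7 (1.39 ± 0.53, FDR = 0.096), NDUFV1 (1.40 ± 0.56, FDR = 0.11), ATP5I and COX5B with differences above 0 (subcutaneous minus perirenal), and NDUFS1 (-0.76 ± 0.31, FDR = 0.12) and ATP5S with differences below 0. For NDUFS1 the HY over DG value was -0.56 (FDR = 0.25) in subcutaneous and 0.20 (FDR = 0.76) in perirenal adipose tissue, and for ATP5S it was -0.75 (FDR = 0.24) and 0.04 (FDR = 0.97), none of them called. Without CN F1 the calls at FDR ≤0.05 were NDUFS7, NDUFS8 and NDUFV1, beside 8.65% of all genes, without DG F1 they were NDUFS1, NDUFS7 and NDUFV1, beside 14.3%, and without HY F2 they were ATP5G2 and ATP5S, beside 15.9%. The call of NDUFA10 in muscle is thus not shown to differ from its change in perirenal adipose tissue.

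Other genes of the pathway were taken from lists. Their counts between tissues rest on all libraries, with the 5 subcutaneous libraries rich in muscle markers included. The part of muscle RNA in the counts of all these lists was not tested. Of 39 assembly factors tested between tissues, 12 were higher and 17 lower in muscle than in perirenal adipose tissue, 10 were higher and 19 lower in subcutaneous than in perirenal adipose tissue, and 14 were higher and 11 lower in muscle than in subcutaneous adipose tissue, beside 80.3%, 68.1% and 72.9% of all genes called in either direction. COX20, which helps to assemble complex IV, and SDHAF1, which helps to assemble complex II, had the largest fold changes, at 338 to 521 CPM for COX20 in perirenal libraries against 1.76 to 4.31 CPM in subcutaneous libraries and at 6.31 to 15.2 CPM for SDHAF1 against 0 to 0.168 CPM. Both rest on loci assembled separately in each tissue. Between diets 1 assembly factor was called, COX10, which takes part in making the heme A of complex IV, higher with HY than with CN in muscle (log2 fold change 1.60 ± 0.32, FDR = 0.023), where 2.69% of all loci were called.

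Of 13 regulators of mitochondrial biogenesis, 7 were higher and 3 lower in muscle than in perirenal adipose tissue, 6 were higher and 3 lower in subcutaneous than in perirenal adipose tissue, and 5 were higher and 2 lower in muscle than in subcutaneous adipose tissue, beside 80.3%, 68.1% and 72.9% of all genes called in either direction. The coactivator PPARGC1A, which drives the transcription of OXPHOS genes, was at 44.7 to 65.4 CPM in muscle and 2.13 to 7.92 CPM in perirenal libraries, with no overlap (log2 fold change 3.60 ± 0.20, FDR = 5.8e-17). The nuclear receptors ESRRG and ESRRB were at 19.0 to 41.2 and 6.50 to 12.5 CPM in muscle and at or near 0 in perirenal libraries, with highest values of 0.0915 and 0.275 CPM. For subcutaneous over perirenal adipose tissue, ESRRG and ESRRB had log2 fold changes of 8.62 and 7.68, with the libraries rich in muscle markers included. The part of muscle RNA in these values was not tested. Between diets GABPA was the 1 regulator called. It encodes a subunit of a factor, also called NRF-2, that binds promoters of OXPHOS genes, and was higher with HY than with CN in muscle (1.04 ± 0.26, FDR = 0.049), beside the same 2.69% of all loci.

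Among 16 electron carriers and feeders, which bring electrons to ubiquinone or make it, 5 were higher and 7 lower in muscle than in perirenal adipose tissue, 1 was higher and 8 lower in subcutaneous than in perirenal adipose tissue, and 7 were higher and 3 lower in muscle than in subcutaneous adipose tissue, beside 80.3%, 68.1% and 72.9% of all genes called in either direction. The mitochondrial glycerol-3-phosphate dehydrogenase GPD2 was higher in muscle than in subcutaneous (2.47 ± 0.16, FDR = 3.4e-15) and perirenal adipose tissue (1.70 ± 0.15, FDR = 1.1e-11), and COQ4, of ubiquinone synthesis, was lower in muscle than in perirenal adipose tissue (-1.45 ± 0.14, FDR = 2.4e-11).

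Of 9 inner membrane carriers and uncoupling proteins, 3 were higher and 6 lower in muscle than in perirenal adipose tissue, 2 were higher and 6 lower in subcutaneous than in perirenal adipose tissue, and 4 were higher and 3 lower in muscle than in subcutaneous adipose tissue, beside 80.3%, 68.1% and 72.9% of all genes called in either direction. UCP1 was at 407 to 1126 CPM in perirenal, 11.4 to 146 CPM in subcutaneous and 0 to 0.244 CPM in muscle libraries, and UCP3, the form typical of skeletal muscle, at 16.9 to 54.7 CPM in muscle and 0 to 0.267 CPM in perirenal libraries. SLC25A4, an ADP/ATP carrier, was higher in muscle than in perirenal adipose tissue as well (3.00 ± 0.32, FDR = 7.7e-10). SLC25A6, which encodes another ADP/ATP carrier, was the 1 gene of this list called between diets, higher with DG than with CN in muscle (0.78 ± 0.16, FDR = 0.039), beside 1.01% of all loci. In the difference of DG vs. HY effects between subcutaneous and perirenal adipose tissue, the assembly factor SCO2 (1.69 ± 0.49, FDR = 0.034) and the mitochondrial RNA polymerase POLRMT (0.98 ± 0.32, FDR = 0.0499) passed as well, beside 7.88% of all genes.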

How the data were processed

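RNA was measured in 36 pooled libraries of 3 fetal tissues. The authors mapped reads with TopHat2 (2.0.4) to the sheep genome Oar_v3.1, assembled loci in each tissue with Cufflinks (2.1.1) and deposited unnormalised HTSeq read counts per locus. The counting mode and strand setting were not given in the sources used here. Groups were taken from the sample labels, and a pool of the same diet, sex and number was taken to be the same fetuses in each tissue, after the pool list of the study.

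Members and gene lists were chosen with earlier results of these data known. Diets were compared within a tissue with edgeR (4.0.16, in R 4.3.3), using filterByExpr (minimum count 10, total 15), TMM scaling and the robust quasi-likelihood test on all 12 libraries, and p-values were adjusted by Benjamini-Hochberg over all loci tested (FDR). Tissues, and differences of diet effects, were tested in 1 fit of 36 libraries on counts summed by gene name. A member was called at FDR ≤0.05. The values of 1 member are not reported here, although it is part of the counts and sums. Sums of markers and members are CPM and carry no test. The scripts were tested on simulated data.

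Named members were the isoform sets and succinate dehydrogenase genes, the 2 largest called fold changes per direction, complex and tissue comparison, and the called members or the 3 smallest p per diet comparison; members at FDR ≤0.20, NDUFS8, NDUFB9, UQCRB, ATP5B and others named outside this rule were chosen after their values were seen. Genes of other lists were named only where called between diets or among the 3 largest tissue fold changes, and not all such genes were named. Of the cell type markers, COL3A1 was called in muscle (HY over CN -0.72), beside 2.69% of all loci. CIDEA and HBM were called in the difference of DG vs. HY effects, subcutaneous minus perirenal (2.04 and 4.24), beside 7.88% of all genes.

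Deviations from the group means of the same pool in muscle and perirenal adipose tissue had a mean correlation of 0.129 (-0.109 to 0.32), in subcutaneous and perirenal adipose tissue 0.0391 (-0.239 to 0.187) and in muscle and subcutaneous adipose tissue 0.0862 (-0.0276 to 0.268), against -0.0429, -0.0129 and -0.0271 for other pools of the diet. None of 54 replicate pairs held identical counts, and their chi-square per degree of freedom was 9.84 to 287. Alternatives were another scaling, no filter, the likelihood-ratio test, DESeq2 (1.42.0), a replicate or pool block, the 8 pools of a comparison alone, a muscle marker covariate, a join over unambiguous names, and each pool left out in turn. Leaving out the 5 subcutaneous libraries rich in muscle markers was chosen after the data were seen. Total counts of 6705766 to 29625146 limit the precision of genes with few counts.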

Additional observations from a re-analysis of the deposited data

Results flagged for a closer look

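In each group of 4 pools the highest and the lowest value were compared with the other 3, for the complex sums and the named members. Of 285 groups, 17 had a value far from the others, a share near the about 5% of such groups that chance alone flags. A gene is also part of the sum of its complex, so these groups are not independent. In muscle, CN pool F2 was far above the other CN pools for summed complex II, at 775 CPM against 474 to 509 CPM, and for NDUFA10 (86.7 against 43.4 to 45.4 CPM), SDHA (433 against 228 to 245 CPM) and UQCRC2 (687 against 430.5 to 470.0 CPM). This pool held RNA of 1 fetus. The part of this in the values was not tested.

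HY pool F2 in muscle was low for summed complex IV, at 2277 CPM against 2969 to 3105 CPM, and for COX7A1, at 337 CPM against 482 to 504 CPM. DG pool F1 in muscle was low for ATP5G2, at 537 CPM against 749.9 to 791 CPM.

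In subcutaneous adipose tissue, HY pool F1 was high for ATP5I (65.3 against 26.4 to 31.9 CPM), COX7A2 (269 against 69.0 to 86.4 CPM) and NDUFA6 (532 against 172 to 215 CPM). CN pool F1 was high for COX4I2 (27.6 against 15.1 to 17.2 CPM), NDUFV1 (124 against 24.8 to 37.0 CPM) and UQCRC1 (157 against 65.8 to 71.3 CPM). COX6A2 was at 118 CPM in HY pool F2, rich in muscle markers, against 1.21 to 17.8 CPM in the other HY pools. UQCRC2 was at 331 CPM in DG pool M1, the DG pool with the fewest muscle markers, against 656 to 672 CPM.

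In perirenal adipose tissue, summed complex V was low in CN pool F1, at 5445 CPM against 7946 to 8184 CPM, and SDHC was high in DG pool F2, at 76.4 CPM against 14.3 to 22.7 CPM.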

How the results depend on the processing

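The counts of members called between tissues stayed within 1.5 times of the reported values. For muscle vs. perirenal adipose tissue (35) they were 32 to 37 with a pool left out and 30 to 38 otherwise, for subcutaneous vs. perirenal adipose tissue (33) 27 to 37 and 28 to 37, and for muscle vs. subcutaneous adipose tissue (31) 29 to 34 and 27 to 37. With the pool as a block they were 37, 32 and 31. In muscle, CN vs. HY gave 1 member called, and 4 by the likelihood-ratio test, 5 by DESeq2, 0 with the 8 pools alone and 0 to 7 with a pool left out, and CN vs. DG gave 0 to 2 with a pool left out. The replicate number of the labels as a block changed 1 count between diets, subcutaneous DG vs. HY, from 0 to 2, where DESeq2 gave 1. The numbers share only the sex, and deviations of same-numbered pools across diets were correlated at -0.028 on average (muscle), 0.227 (subcutaneous) and 0.0842 (perirenal). The difference of DG vs. HY effects between subcutaneous and perirenal adipose tissue gave 0 to 3 with a pool left out.

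Some values that were not called changed sign, and the cause was not tested. COX6B1 in muscle vs. perirenal adipose tissue was at 0.036, 0.041 and 0.032 without CN M1, DG F1 and HY M1, and between -0.136 and 0.041 with any pool left out. For COX4I2, muscle vs subcutaneous adipose tissue, the value was 0.0038 with RLE scaling, 0.0097 without a filter, 0.0037 in DESeq2 and 0.0096, 0.0104, 0.0094, 0.0363, 0.0382 and 0.0738 without CN F1, CN F2, CN M1, DG F1, DG M1 and HY F1, with a range of -0.0489 to 0.0738. Without the subcutaneous libraries rich in muscle markers, COX7A2 in subcutaneous vs. perirenal adipose tissue was at 0.12, and in subcutaneous CN vs. DG ATP5G2 was at -0.014 and SDHC at -0.12. In that diet comparison DG M1 was then the only DG pool left. Of the values of single members under the alternatives, 1556 kept their direction and side of the threshold, 40 lost the call, 26 gained one and 15 changed sign.

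Genes with few counts, COX6A2 in perirenal adipose tissue and COX6B2 in every tissue, were at the limit of this depth.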
